A study of Mus musculus with 14 samples.

Results

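The 44 genes described here encode proteins that license and fire replication origins, copy DNA, supply its nucleotides and reassemble chromatin behind the fork. They were chosen by symbol, as genes of origin licensing, the replicative polymerases, E2F targets and nucleotide synthesis, from the 55291 gene symbols that both deposited tables share. The rule uses no measured value, though the genes were chosen with earlier results of these data known. All 44 passed the filter on low counts in both comparisons. The 44 were read in 8 groups by role, namely 10 genes of origin licensing, 6 of helicase activation, 6 of polymerases and primase, 7 of the clamp, its loader and the lagging strand, 5 of deoxynucleotide supply, 3 of pyrimidine ring synthesis, 4 of G1/S control and 3 of replicated chromatin.

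The data were 14 poly(A)-selected RNA sequencing libraries of mouse T cells, all labelled WT in genotype, from 2 separate experiments. In the first, OT-1 mice, which carry a transgenic CD8+ T cell receptor against an ovalbumin (OVA) peptide, gave whole splenocytes that received 1 µg/mL of that peptide and 200 U/mL recombinant human interleukin-2. To these cultures was added ND-646 at 100 nM, which inhibits acetyl-CoA carboxylase (n = 4), or DMSO vehicle (n = 4), through 3 days of activation and 4 days of further expansion, 7 days in all. In the second, CD8+ T cells were pre-enriched and sorted from MCA205 fibrosarcomas (n = 3) and from spleens (n = 3), both taken 14 days after the tumour cells were placed under the skin of C57BL/6 mice. The labels call the tumour samples pooled and speak of groups of mice, and they name no sort of the cultured splenocytes. Nothing in the labels ties the replicates to different mice or cultures, and p-values therefore measure only the spread between these samples, which may be technical.

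Before S phase, the origin recognition complex, with Cdc6 and Cdt1, loads the ring of Mcm proteins onto replication origins. Mcm10, Cdc45 and the GINS complex then turn the ring into a moving helicase, polymerase alpha and primase lay down primers, and polymerases delta and epsilon extend them while tethered to the sliding clamp PCNA. Ribonucleotide reductase, thymidylate synthase and thymidine kinase supply deoxynucleotides, and E2F transcription factors with cyclin E switch many of these genes on as a cell leaves G1. Resting T cells hold little of this machinery, and T cells that meet their antigen build it up before they divide.

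Values are CPM, counts per 1000000 counts, on library sizes scaled by the trimmed mean of M values (TMM) within each experiment. A gene was called higher or lower where the Benjamini-Hochberg adjusted p of edgeR's quasi-likelihood test, over all genes tested in that experiment, was under 0.05. Library totals ran from 27.9 to 33.8 M counts (M, 1000000 counts) in ND-646 and from 23.5 to 29.0 M in vehicle cultures, and from 19.6 to 21.0 M in tumour and from 19.8 to 20.8 M in spleen samples. The 15 genes of CD8 T cell identity summed to 6446 to 6657 CPM in ND-646 and 6576 to 6921 CPM in vehicle libraries. In tumour libraries they summed to 4368 to 5892 CPM, against 9610 to 9671 CPM in spleen libraries, and all 15 were called lower in tumour. Cd8a, which defines the sorted cells, averaged 963 ± 164 CPM in tumour and 1549.8 ± 17.8 CPM in spleen libraries (SD, n = 3 each), and the most abundant of the 15 were Trbc2 in ND-646 (1158 ± 52.7 CPM) and Thy1 in vehicle (1568 ± 49.5 CPM) cultures (SD, n = 4 each). The 14 fibroblast and fibrosarcoma genes summed to 10914 to 15843 CPM in tumour libraries, against 2.04 to 17.2 CPM in spleen libraries, where Lum was at 0. All 13 that were tested were higher in tumour, with Col3a1, a collagen gene of fibroblasts, at 3083 ± 488 CPM in tumour and 1.47 ± 2.16 CPM in spleen (SD, n = 3 each). In bulk RNA, fewer cells of a type and less RNA per cell cannot be told apart.

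Stretches of promoter are shown for 5 of the 44 genes, because their transcripts had among the largest differences between groups (Orc1, Cdc6 and Rrm2) or belong to the Mcm ring (Mcm5 and Mcm6), and because they differ in E2F words. Each is 120 bases of the strand that the gene is read from, 5′ to 3′, from the RefSeq promoter of GRCm38.p6, which holds 250 bases before and 50 after a gene's start. Capitals mark 8-letter words known to be bound by E2F factors, searched as TTTCCCGC, TTTGGCGC, TTTCGCGC and TTTGCCGC on both strands. The Cdc6 stretch (chr11:98907951-98908070, + strand) and the Mcm5 stretch (chr8:75109309-75109428, + strand) run from 200 to 81 bases before the start. The Mcm6 (chr1:128359706-128359825, - strand), Orc1 (chr4:108579334-108579453, + strand) and Rrm2 (chr12:24708134-24708253, + strand) stretches run from 120 to 1 base before it. In Mcm5, and at the first of the Mcm6 sites, 2 words overlap and are marked as 1 run of capitals.
Cdc6: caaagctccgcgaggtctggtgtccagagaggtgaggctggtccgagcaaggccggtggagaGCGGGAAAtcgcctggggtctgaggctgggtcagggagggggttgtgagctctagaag
Mcm5: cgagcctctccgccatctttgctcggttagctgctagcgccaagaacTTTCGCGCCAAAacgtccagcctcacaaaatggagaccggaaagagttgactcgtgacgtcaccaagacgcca
Mcm6: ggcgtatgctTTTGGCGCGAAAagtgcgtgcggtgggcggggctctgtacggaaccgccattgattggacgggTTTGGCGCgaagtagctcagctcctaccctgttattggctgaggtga
Orc1: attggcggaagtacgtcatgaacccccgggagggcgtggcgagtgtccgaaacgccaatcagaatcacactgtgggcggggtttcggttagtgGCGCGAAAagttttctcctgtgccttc
Rrm2: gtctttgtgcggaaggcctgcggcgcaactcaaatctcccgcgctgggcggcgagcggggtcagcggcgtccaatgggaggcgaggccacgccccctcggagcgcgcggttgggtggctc

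The RefSeq table held a promoter for 36 of the 44 genes, and 15 of these 36 (41.7%) had at least 1 of the words, against 704 of all 27025 genes in the table (2.60%) and 4.77% of the tabulated genes tested in the ND-646 comparison. E2F targets were among the kinds of gene chosen, so a higher share was partly built into the choice. The 15 were Orc1, Cdc6, Cdt1, Mcm3, Mcm5, Mcm6 and Mcm7 of licensing, Gins3, the polymerase genes Pola1, Pold1 and Pole2, the clamp loader gene Rfc3, the ligase gene Lig1, E2f2 and Uhrf1. Per promoter, TTTCCCGC was in 14.3% of the 42 promoters of these genes and 1.07% of all 32851 promoters of the table. TTTGGCGC was in 16.7% and 0.514%, TTTCGCGC in 16.7% and 0.323%, and TTTGCCGC in 0% and 0.441%. A match is a run of letters and not a measured binding site. Ccne2, Dhodh, Gins1, Gins2, Gins4, Mcm4, Pole and Rfc2 had no entry.

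**Figure D1:**
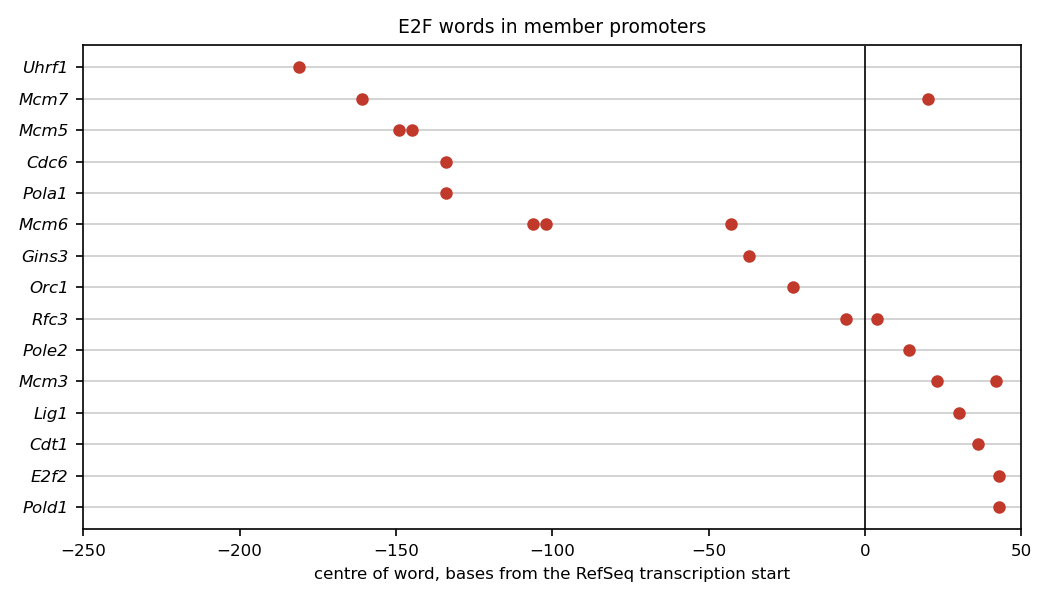
Position of each E2F word (red point, centre of the word) in the promoters of the 15 genes that held one. The horizontal axis gives bases from the RefSeq transcription start (vertical line), from 250 before to 50 after it; Mcm6 held 3 words, and Mcm3, Mcm5, Mcm7 and Rfc3 held 2 each.

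The first comparison asked how ND-646 altered the transcripts of the expanding OT-1 cultures. Of the 44 genes, 40 were lower in ND-646 than in vehicle cultures and 0 were higher, where 56.3% of all 14251 genes tested were called in either direction, 26.5% lower and 29.8% higher. No gene of the 44 was higher at an unadjusted p under 0.05 either, nor by DESeq2 or limma-voom. Their median log2 fold change was -0.38, against 0.01 over all genes tested, and the range ran from -1.25 for Rrm2 to 0.01 for Dut. In 37 of the 44, every ND-646 library was below every vehicle library, as in 24.1% of all genes tested (the reverse held in 27%). Only Rrm2 was lower by at least 2-fold, a size called lower in 4.37% and higher in 2.63% of all genes tested.

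**Figure D2:**
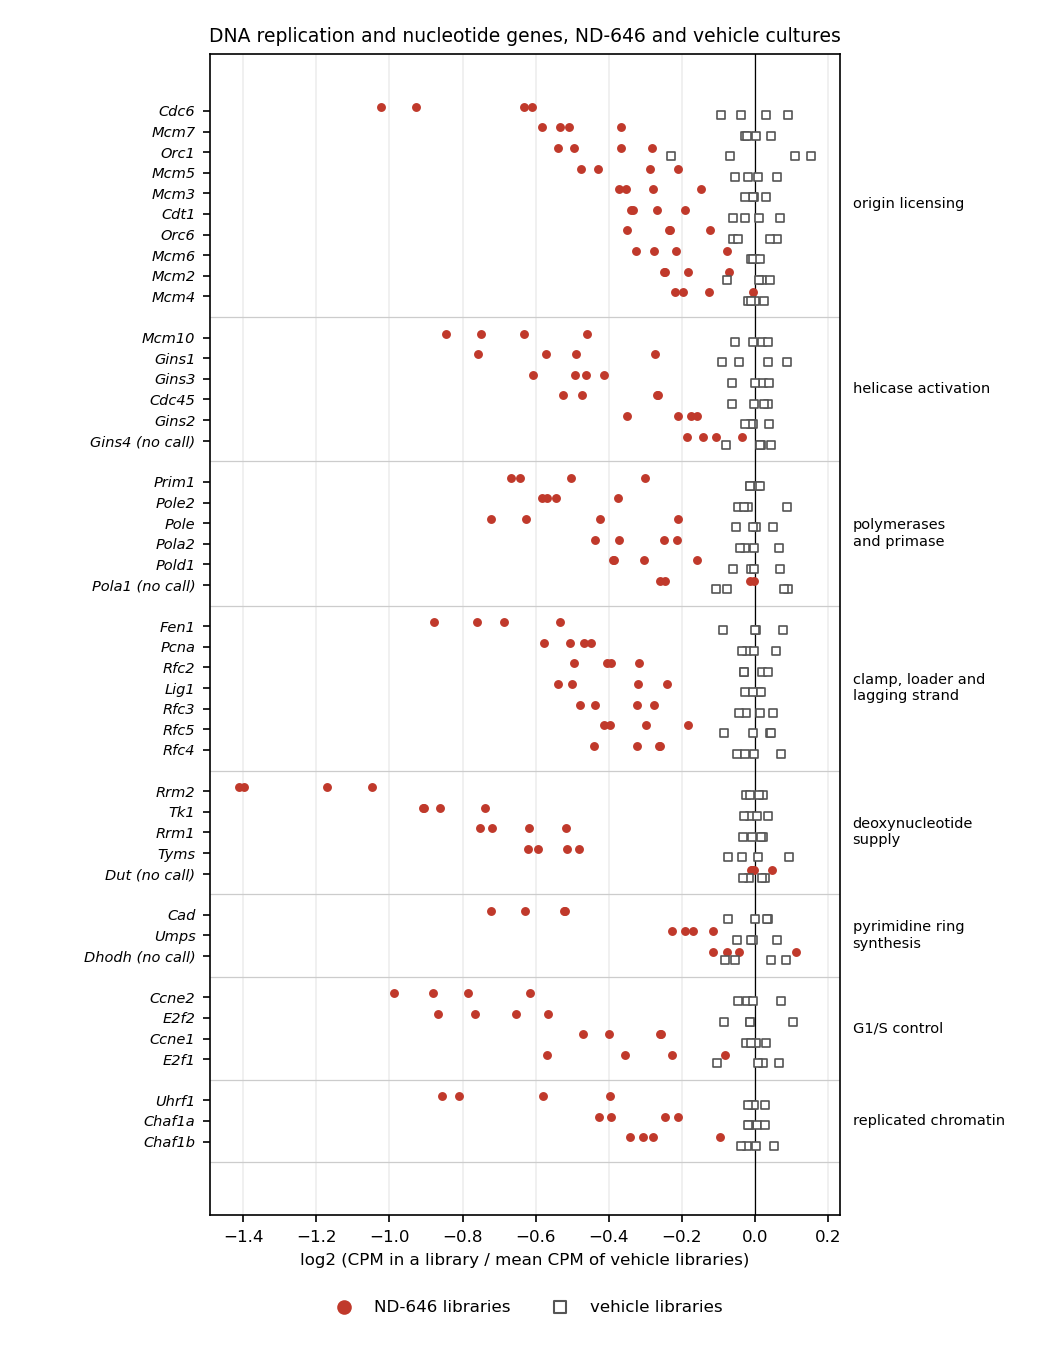
Level of each of the 44 genes in each ND-646 library (red circles) and vehicle library (open grey squares), as the log2 ratio of its CPM to the mean of the 4 vehicle libraries. Genes are grouped by role and "no call" marks an adjusted p of 0.05 or more; Rrm2, Tk1, Ccne2 and Cdc6 lie farthest to the left, and in 7 genes the groups overlap.

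All 10 licensing genes were lower in ND-646 cultures, with a median log2 fold change of -0.28. Cdc6, the ATPase that helps the origin complex to load the Mcm ring, had 20.6, 25.6, 25.3 and 19.3 CPM in the ND-646 libraries, against 38.2, 40.0, 36.7 and 41.7 CPM in the vehicle libraries. Every ND-646 library lay well below the lowest vehicle library. Cdc6 was lower by 0.79 ± 0.09 log2 units (SE; adjusted p = 4.16e-06). Mcm4, a subunit of the ring, was the least changed of the 10, with 147, 157, 170.4 and 149 CPM in ND-646 and 174, 171, 169 and 169.9 CPM in vehicle libraries. ND-646 libraries 1, 2 and 4 were below all vehicle libraries, while library 3 reached their level. Mcm4 was lower by 0.13 ± 0.04 log2 units (SE; adjusted p = 0.0132), a call lost under a scaling by library totals (adjusted p = 0.0528). The other subunits, Mcm2, Mcm3, Mcm5, Mcm6 and Mcm7, changed by -0.19 to -0.49 on the log2 scale. Orc1, the ATPase subunit of the origin complex that comes and goes with the cell cycle, changed by -0.42 ± 0.09 (SE; adjusted p = 0.00041), and Orc6, its smallest subunit, by -0.23 ± 0.05 (SE; adjusted p = 0.000936). Cdt1, the loading partner of Cdc6, averaged 65.8 ± 3.18 CPM in ND-646 and 80.0 ± 3.06 CPM in vehicle cultures (SD, n = 4 each).

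Of 6 helicase activation genes, 5 were lower and 1 was not called. Mcm10, which is needed to start unwinding, had 27.9, 30.2, 34.1 and 26.0 CPM in ND-646 libraries, against 47.5, 45.1, 46.7 and 48.0 CPM in vehicle libraries. The groups were far apart, and Mcm10 was lower by 0.66 ± 0.07 log2 units (SE; adjusted p = 2.77e-07). Gins4, a subunit of GINS, had 34.9, 33.3, 31.5 and 32.5 CPM in ND-646 libraries and 36.9, 36.3, 33.9 and 36.2 CPM in vehicle libraries. Those groups overlapped at library 1 of ND-646 and library 3 of vehicle, and the log2 fold change was -0.12 ± 0.05 (SE; adjusted p = 0.0521). Its partners Gins1 and Gins3 changed by -0.51 ± 0.09 (SE; adjusted p = 9.35e-05) and -0.49 ± 0.06 (SE; adjusted p = 2.08e-06) on the log2 scale, and Gins2 by -0.22 ± 0.05 (SE; adjusted p = 0.000757). Gins2 shares 2758 bases with Gse1 on the opposite strand, a gene at 72.2 CPM in ND-646 and 79.5 CPM in vehicle libraries. The values of Gins2 in both comparisons are therefore uncertain. Cdc45, which binds the ring together with GINS, averaged 30.3 ± 2.85 CPM in ND-646 and 39.3 ± 1.19 CPM in vehicle cultures (SD, n = 4 each).

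Among the polymerase and primase genes, 5 of 6 were lower. Prim1, the catalytic primase subunit that makes the RNA primer, had 34.5, 38.7, 44.5 and 35.2 CPM in ND-646 libraries, against 54.4, 55.2, 54.4 and 55.5 CPM in vehicle libraries. The vehicle libraries were nearly equal and the ND-646 libraries all lay below them and spread more. Prim1 was lower by 0.52 ± 0.07 log2 units (SE; adjusted p = 6.88e-06). Pola1, the catalytic subunit of polymerase alpha, which extends that primer, had 37.0, 36.6, 43.8 and 43.4 CPM in ND-646 and 46.7, 40.8, 46.3 and 41.6 CPM in vehicle libraries. The groups overlapped, and Pola1 was not called, with a log2 fold change of -0.13 ± 0.07 (SE; adjusted p = 0.13); it was called lower without ND-646 library 3 (-0.17, adjusted p = 0.0383) or library 4 (-0.18, adjusted p = 0.0381). Pole, the catalytic subunit of the leading strand polymerase epsilon, changed by -0.48 ± 0.11 (SE; adjusted p = 0.00515) on the log2 scale, and Pole2, its accessory subunit, by -0.51 ± 0.07 (SE; adjusted p = 7.46e-06). Pold1, of the lagging strand polymerase delta, and Pola2, of the alpha complex, were both lower, each by 0.31 on that scale.

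All 7 genes of the clamp, its loader and the lagging strand were lower in ND-646 cultures, with no overlap. Fen1, the nuclease that trims the flap ahead of an Okazaki fragment, had 43.3, 45.6, 50.6 and 39.9 CPM in ND-646 libraries, against 73.5, 73.4, 69.0 and 77.4 CPM in vehicle libraries. Even the highest ND-646 library was well below the lowest vehicle library. Fen1 was lower by 0.71 ± 0.06 log2 units (SE; adjusted p = 8.88e-08). Rfc4, a clamp loader subunit, was the least changed, with 20.2, 19.4, 20.3 and 17.9 CPM in ND-646 and 25.5, 23.4, 23.8 and 24.2 CPM in vehicle libraries, lower by 0.32 ± 0.06 log2 units (SE; adjusted p = 0.000155). The groups stood apart, by more than the range within ND-646. Pcna, the clamp itself, averaged 219 ± 8.49 CPM in ND-646 and 309.7 ± 8.90 CPM in vehicle cultures (SD, n = 4 each). Lig1, which seals the fragments, changed by -0.40 ± 0.06 (SE; adjusted p = 2.44e-05) on the log2 scale, and the loader genes Rfc2, Rfc3 and Rfc5 by -0.40, -0.38 and -0.32. Rfc2 shares 954 bases with Lat2 on the opposite strand, a gene at 12.2 CPM in ND-646 and 45.6 CPM in vehicle libraries, so its value is uncertain; whether counting used strand is not given in the sources used here.

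Deoxynucleotide supply had the lowest median of the 8 roles, -0.65, with 4 of 5 genes lower. Rrm2, the small subunit of ribonucleotide reductase, which is made around S phase, had 84.4, 98.6, 108 and 83.5 CPM in ND-646 libraries, against 219, 226, 220.4 and 224 CPM in vehicle libraries. Every ND-646 library was at or under 108 CPM and every vehicle library at or above 219 CPM. Rrm2 was lower by 1.25 ± 0.07 log2 units (SE; adjusted p = 7.1e-08), or 2.38-fold. Rrm1, the large subunit, averaged 134 ± 9.95 CPM in ND-646 and 210.1 ± 3.53 CPM in vehicle cultures. Tk1, the S phase thymidine kinase of the salvage route, averaged 39.1 ± 2.19 CPM in ND-646 and 70.6 ± 1.41 CPM in vehicle cultures, and Tyms, which makes thymidylate afresh, 20.2 ± 0.920 CPM in ND-646 and 29.5 ± 1.48 CPM in vehicle cultures (SD, n = 4 each). Dut, the dUTPase that keeps uracil out of DNA, did not follow them, with 127, 122, 122 and 122 CPM in ND-646 libraries and 125, 124, 121 and 119.8 CPM in vehicle libraries. The groups overlapped and the log2 fold change of Dut was 0.01 ± 0.03 (SE; adjusted p = 0.875).

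Pyrimidine ring synthesis split by step. Cad, the enzyme of the first 3 steps, had 146, 155, 168 and 167 CPM in ND-646 libraries, against 246, 246, 229 and 240.2 CPM in vehicle libraries, and was lower by 0.60 ± 0.05 log2 units (SE; adjusted p = 3.18e-09). No ND-646 library came near the vehicle range. Dhodh, the mitochondrial enzyme of the next step, had 21.3, 18.7, 19.1 and 18.2 CPM in ND-646 and 19.0, 20.3, 20.9 and 18.6 CPM in vehicle libraries. The groups overlapped over most of their range, and the log2 fold change was -0.03 ± 0.06 (SE; adjusted p = 0.745). Umps, which completes uridylate, changed by -0.17 ± 0.04 (SE; adjusted p = 0.00143) on the log2 scale.

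The 4 genes of G1/S control were all lower. Ccne2, one of the cyclins that drive Cdk2 at S phase entry, had 14.1, 15.1, 16.9 and 13.1 CPM in ND-646 libraries, against 27.3, 25.1, 25.6 and 25.9 CPM in vehicle libraries. The groups were well separated, and Ccne2 was lower by 0.81 ± 0.07 log2 units (SE; adjusted p = 2.18e-08). E2f1, an activating E2F factor, had 33.3, 42.2, 46.6 and 38.6 CPM in ND-646 and 50.1, 49.7, 45.9 and 51.7 CPM in vehicle libraries. Library 3 of ND-646 overlapped the vehicle range and the others were below it. E2f1 was lower by 0.30 ± 0.09 log2 units (SE; adjusted p = 0.0158). E2f2, another activator, changed by -0.71 ± 0.06 (SE; adjusted p = 7.08e-08) and Ccne1, the other cyclin E, by -0.35 ± 0.05 (SE; adjusted p = 1.27e-05) on the log2 scale. Of the chromatin genes, Uhrf1, which carries DNA methylation over to the new strand, had 99.7, 121, 137 and 103 CPM in ND-646 libraries, against 179, 180.1, 184 and 178 CPM in vehicle libraries, and was lower by 0.65 ± 0.10 log2 units (SE; adjusted p = 0.000461). Its vehicle libraries were close together and its ND-646 libraries wide apart, all below. Chaf1b, a subunit of the chromatin assembly factor that deposits histones on new DNA, had 34.6, 35.3, 40.1 and 33.8 CPM in ND-646 and 44.4, 42.9, 42.2 and 41.7 CPM in vehicle libraries. The groups did not overlap, and Chaf1b was lower by 0.25 ± 0.05 log2 units (SE; adjusted p = 0.00052). Chaf1a, the large subunit, changed by -0.32 ± 0.05 (SE; adjusted p = 1.28e-05).

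Within the ND-646 group the 44 genes moved by library. Relative to the vehicle mean, their median log2 ratio was -0.47 in ND-646 library 1 and -0.49 in library 4, against -0.31 in library 2 and -0.26 in library 3. Library 3 was the highest of its group in 35 of the 44 genes, library 4 the lowest in 22 and library 1 the lowest in 17. The median coefficient of variation over the genes was 7.35% in ND-646 and 3.10% in vehicle cultures. With ND-646 libraries 2 and 3 alone, the median log2 fold change of the 44 genes was -0.31, and with libraries 1 and 4 alone it was -0.46; this division was chosen after the data were seen, and the labels name no batch.

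In 5 lists, 102 other genes of the same pathways can be set against all genes tested, of which 26.5% were lower and 29.8% higher. Of 26 other replisome and fork genes, 21 were lower and 3 higher (median log2 fold change -0.34), with Dna2, a nuclease and helicase of lagging strand processing, at -1.54 ± 0.09 (SE; adjusted p = 9.36e-11) and Pold4, the smallest polymerase delta subunit, at 0.92 ± 0.05 (SE; adjusted p = 1.25e-11). Of 15 other origin and firing factors, 8 were lower and 5 higher (median -0.10), from -0.69 ± 0.05 (SE; adjusted p = 1.29e-09) for Dbf4, which activates the Cdc7 kinase, to 0.40 ± 0.05 (SE; adjusted p = 1.36e-06) for Orc4, a subunit of the origin complex. Of 18 genes of deoxynucleotide salvage and turnover, 9 were lower and 6 higher (median -0.13), from -0.74 ± 0.04 (SE; adjusted p = 6.49e-11) for the nucleoside diphosphate kinase Nme1 to 0.93 ± 0.05 (SE; adjusted p = 1.33e-11) for the mitochondrial thymidine kinase Tk2. Of 15 genes of purine synthesis and salvage, 11 were lower and 1 was higher (median -0.25), from -0.68 ± 0.04 (SE; adjusted p = 8.74e-11) for the salvage enzyme Aprt to 0.17 ± 0.04 (SE; adjusted p = 0.000498) for adenylosuccinate synthase, Adss. Of 28 other G1/S genes, 21 were lower and 4 higher (median -0.23), from -1.36 ± 0.12 (SE; adjusted p = 8.25e-06) for the repressor E2f8 to 0.39 ± 0.06 (SE; adjusted p = 4.28e-05) for Cdkn1b, the inhibitor p27 of cyclin-dependent kinases. A set of 26 mitosis genes, given for scale, was lower in 26 of 26 with a median of -1.12, from -1.48 for cyclin B2 (Ccnb2) to -0.59 for the kinetochore gene Ndc80. The difference between these medians was not tested.

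**Figure D3:**
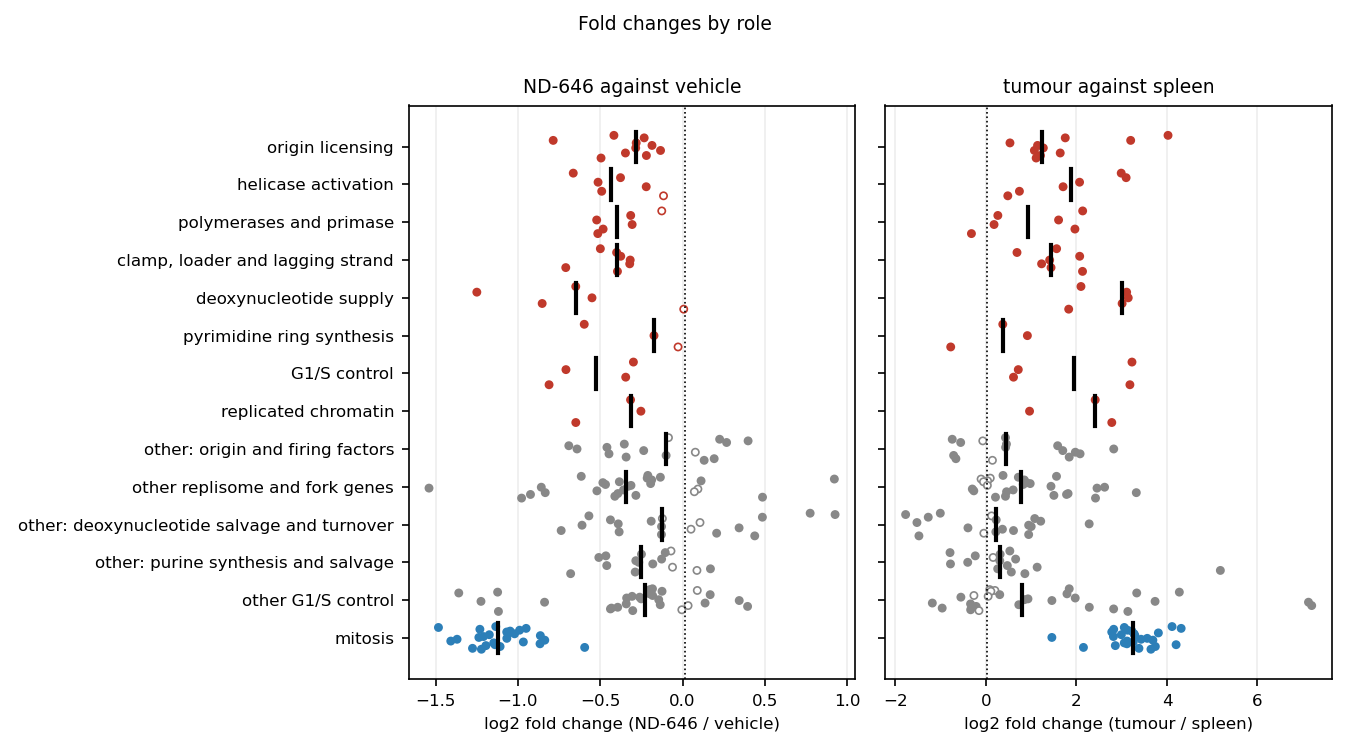
Log2 fold change of each gene (points; filled where the adjusted p was under 0.05, open otherwise) by role, for ND-646 over vehicle at left and tumour over spleen at right. Red marks the 44 genes in 8 roles, grey the 102 other pathway genes and blue 26 mitosis genes, black bars are medians and the dotted line is the median of all genes tested; the medians of the 8 red rows run from -0.65 to -0.17 at left and from 0.37 to 3.01 at right.

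Markers of other cells also differed between the cultures. The 14 macrophage, monocyte and neutrophil genes summed to 56.1 to 68.5 CPM in ND-646 and 245 to 259 CPM in vehicle libraries, 5 of the 6 tested were lower, C1qa and C1qb were at 0 in ND-646 libraries, and S100a8 and S100a9 were at 0 in both groups; Spp1 made up most of the sum, at 54.1 ± 6.14 CPM in ND-646 and 229 ± 5.96 CPM in vehicle cultures. The 7 genes of CD4 and regulatory T cells summed to 881 to 906 CPM in ND-646 and 1299 to 1321 CPM in vehicle libraries. Most of that sum was Il2ra, at 584 ± 13.2 CPM in ND-646 and 1009 ± 17.8 CPM in vehicle cultures (SD, n = 4 each). Of the 7 genes, 5 were lower and 1 was higher. Which cells of the cultures held the Il2ra and Spp1 transcripts was not tested. The 10 B cell genes summed to 148 to 173 CPM in ND-646 and 116 to 132 CPM in vehicle libraries, nearly all of it Ighm, and 6 of the 7 tested were lower. The NK and gamma delta T cell genes summed to 169.8 to 179 CPM in ND-646 and 169 to 177 CPM in vehicle libraries. Most of that was Trdc, higher at 159.8 ± 4.76 CPM in ND-646 and 135 ± 4.27 CPM in vehicle cultures, while 4 of the 6 genes tested were lower (median log2 fold change -1.18). The endothelial genes, led by Pecam1, summed to 46.7 to 53.6 CPM in ND-646 and 64.8 to 71.2 CPM in vehicle libraries, and the fibroblast genes, led by Col6a2, to 10.7 to 11.7 CPM in ND-646 and 11.0 to 12.2 CPM in vehicle libraries. Erythroid genes summed to at most 0.73 CPM in any culture. The part of these cells in the lower replication transcripts was not tested.

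Ratios between partner genes in the same library do not depend on how libraries are scaled, and 8 were compared in each experiment by a two-sided exact permutation test, with adjustment over all 16. In the cultures, the groups stood apart in 5 of 8 ratios at an exact p of 0.0286, the smallest that 4 against 4 allows (adjusted p = 0.0914). With these group sizes no ratio could reach an adjusted p under 0.05, so the adjusted values say nothing for or against a difference. The counts behind the ratios were not divided by transcript length, so a value over or under 1 does not tell which partner was more abundant. Per kilobase of transcript, Rrm2 stood at 42.6 and Rrm1 at 33.5 CPM in ND-646 libraries, and E2f2 at 11.2 and E2f1 at 14.6 CPM. The small over the large reductase subunit, Rrm2/Rrm1, was 0.695 in ND-646 and 1.06 in vehicle libraries (geometric means, log2 values -0.52 ± 0.07 and 0.08 ± 0.04, SD, n = 4 each), lower in 4 of 4 ND-646 libraries. Ccne2/Ccne1 was 0.396 with ND-646 and 0.549 with vehicle, E2f2/E2f1 was 1.33 with ND-646 and 1.76 with vehicle, Cad/Dhodh was 8.23 with ND-646 and 12.2 with vehicle, and Tk1 over the deoxycytidine kinase gene Dck was 1.06 with ND-646 and 1.29 with vehicle. In each of these pairs the first gene was lower relative to the second with ND-646. Cdt1 over its inhibitor geminin, Gmnn, was 2.12 with ND-646 and 1.89 with vehicle (p = 0.0571, exact), Orc6/Orc1 was 2.85 with ND-646 and 2.52 with vehicle (p = 0.0571, exact), and Pole2/Pole was 0.101 with ND-646 and 0.103 with vehicle (p = 0.857, exact). Those groups overlapped.

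The second comparison set CD8+ T cells from MCA205 tumours against those from spleens. Of the 44 genes, 42 were higher in tumour and 2 were lower, Pole2 and Dhodh, where 83.8% of all 15042 genes tested were called in either direction, 43.6% higher and 40.2% lower. The median log2 fold change of the 44 was 1.58, against 0.03 over all genes tested, and 31 were higher by at least 2-fold, a size called higher in 27.5% and lower in 19.2% of all genes. In all 44 the 3 tumour and 3 spleen libraries did not overlap, as in 44.6% of all genes on the higher side and 41.6% on the lower side. Orc1 had the largest difference. When libraries were scaled by the 15 CD8 identity genes, the median of all genes rose by 1.01, calls were 10582 higher and 1720 lower instead of 6551 and 6051, and all 44 genes had positive log2 fold changes, from 0.24 to 5.03, so the direction of Pole2 and Dhodh depends on the scaling.

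**Figure D4:**
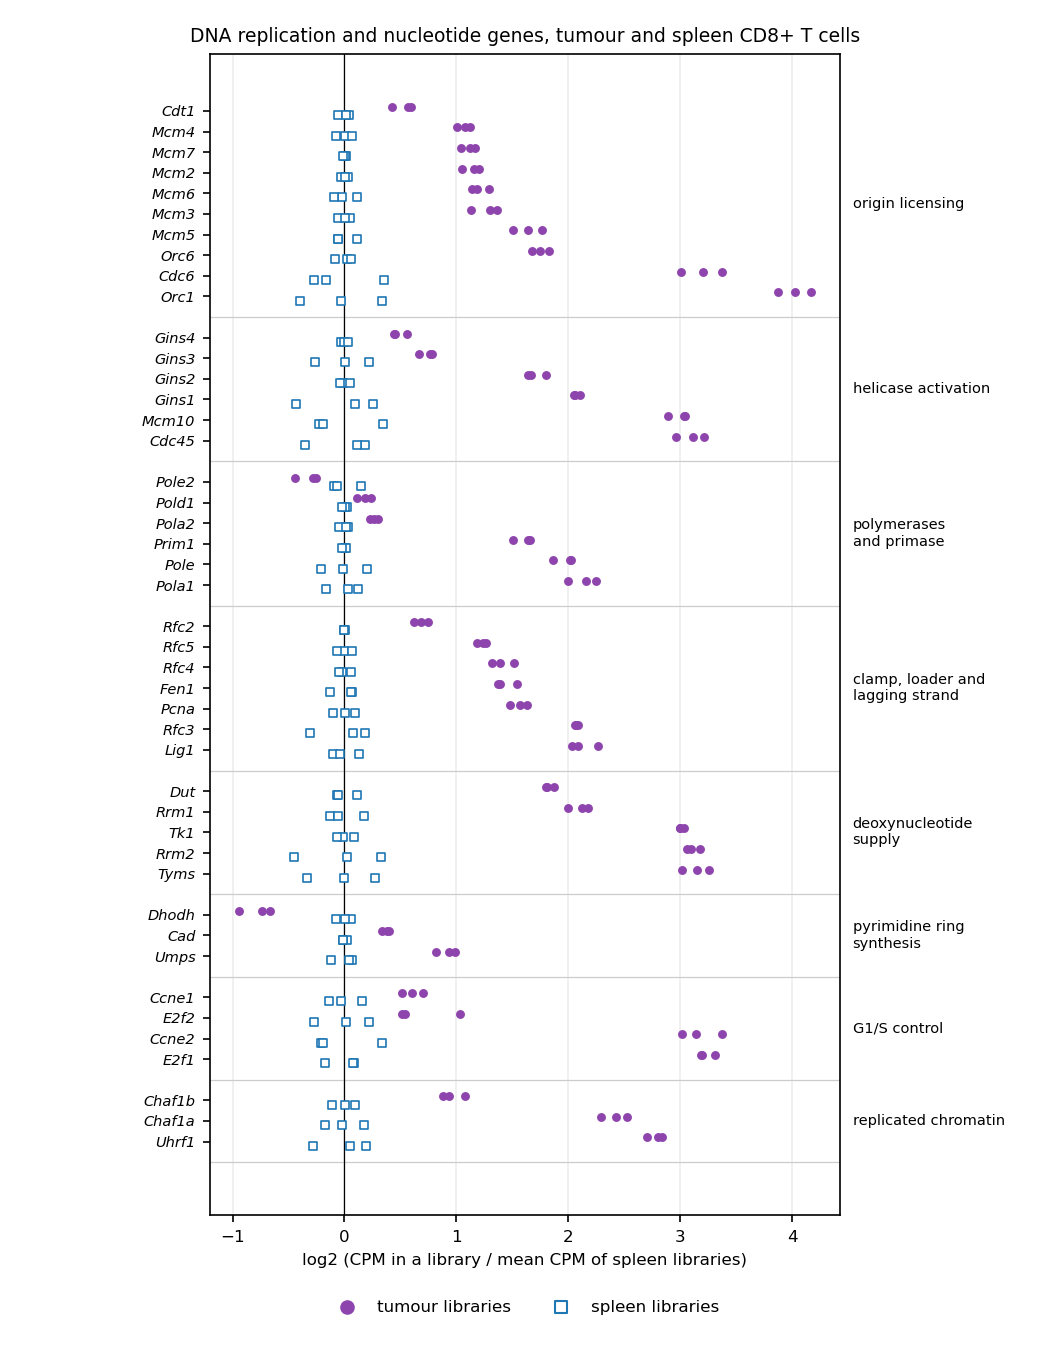
Level of each of the 44 genes in each tumour library (purple circles) and spleen library (open blue squares), as the log2 ratio of its CPM to the mean of the 3 spleen libraries. All genes but Pole2 and Dhodh, whose direction turns when libraries are scaled by CD8 identity genes, have their tumour libraries at right; Orc1, E2f1 and Cdc6 lie farthest out.

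All 10 licensing genes were higher in tumour, with a median of 1.24, and they spread widely. Orc1 had 21.4, 19.3 and 17.4 CPM in tumour libraries, against 1.16, 1.50 and 0.898 CPM in spleen libraries. It was scarce in every spleen library, though above the floor of 3 counts (0.145 to 0.150 CPM there), and far higher in every tumour library. Orc1 was higher by 4.02 ± 0.18 log2 units (SE; adjusted p = 3.44e-08), or 16.3-fold. Cdt1 moved least, with 104, 101 and 92.0 CPM in tumour and 70.3, 65.8 and 69.2 CPM in spleen libraries, higher by 0.53 ± 0.06 log2 units (SE; adjusted p = 1.85e-05). Its groups were apart under TMM, and under the CD8 scaling its log2 fold change was 1.55. Cdc6 followed Orc1, at 51.0 ± 6.51 CPM in tumour and 5.54 ± 1.35 CPM in spleen (SD, n = 3 each), and was higher by 3.20 ± 0.16 log2 units (SE; adjusted p = 1.22e-07). The 6 genes of the Mcm ring moved together, by 1.07 to 1.64 on the log2 scale, and Orc6 by 1.75 ± 0.07 (SE; adjusted p = 2.43e-08).

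All 6 helicase activation genes were higher, by widely different amounts. Cdc45 had 48.0, 51.5 and 43.3 CPM in tumour libraries, against 6.32, 4.34 and 5.98 CPM in spleen libraries, a difference of 3.10 ± 0.13 log2 units (SE; adjusted p = 2.57e-08). Gins4 had 40.9, 37.7 and 38.1 CPM in tumour and 27.3, 27.7 and 28.5 CPM in spleen libraries, a difference of 0.48 ± 0.06 log2 units (SE; adjusted p = 5.69e-05). Under the CD8 scaling these log2 fold changes were 4.12 for Cdc45 and 1.50 for Gins4, so Cdc45 moved more under both. Mcm10 changed by 2.99 ± 0.14 (SE; adjusted p = 4.18e-08), and the other GINS genes Gins1, Gins2 and Gins3 by 2.07 ± 0.17 (SE; adjusted p = 1.8e-06), 1.70 ± 0.07 (SE; adjusted p = 2.58e-08) and 0.74 ± 0.13 (SE; adjusted p = 0.000486) on the log2 scale.

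Polymerase genes went both ways. Pola1 had 71.4, 75.8 and 64.0 CPM in tumour libraries, against 17.4, 14.3 and 16.3 CPM in spleen libraries, and was higher by 2.14 ± 0.09 log2 units (SE; adjusted p = 2.68e-08). Its spleen libraries were all far under the tumour range. Pole2 had 14.8, 14.5 and 13.0 CPM in tumour and 16.5, 16.8 and 19.5 CPM in spleen libraries, and was lower by 0.32 ± 0.10 log2 units (SE; adjusted p = 0.0144). The gap between the groups was narrower than the range within either, the call was lost without tumour replicate 3 (adjusted p = 0.0873) or without spleen replicate 3 (adjusted p = 0.0960), and under the CD8 scaling Pole2 was 0.69 higher. It also shares 249 bases with Gm49384, at 3.92 CPM in tumour and 0.482 CPM in spleen libraries. Pole, which partners Pole2, was higher by 1.97 ± 0.10 log2 units (SE; adjusted p = 8.28e-08). Pold1 and Pola2 differed little, by 0.18 ± 0.05 (SE; adjusted p = 0.00733) and 0.26 ± 0.05 (SE; adjusted p = 0.000654) on the log2 scale, and Prim1 by 1.60 ± 0.07 (SE; adjusted p = 2.13e-08).

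The 7 clamp, loader and lagging strand genes were all higher, with a median of 1.44. Lig1 had 163, 144 and 139 CPM in tumour libraries, against 37.1, 31.5 and 33.1 CPM in spleen libraries, and was higher by 2.13 ± 0.08 log2 units (SE; adjusted p = 1.62e-08). The tumour level was several times the spleen level in every library. Rfc2 moved least, with 99.3, 90.9 and 95.1 CPM in tumour and 59.3, 59.0 and 59.0 CPM in spleen libraries, higher by 0.69 ± 0.05 log2 units (SE; adjusted p = 9.1e-07). Its spleen libraries were almost identical; Lat2, which overlaps Rfc2, stood at 22.3 CPM in tumour and 0.933 CPM in spleen. Pcna averaged 377 ± 19.2 CPM in tumour and 128 ± 8.72 CPM in spleen, and Fen1 80.0 ± 5.24 CPM in tumour and 29.5 ± 2.23 CPM in spleen (SD, n = 3 each). Rfc3, Rfc4 and Rfc5 changed by 2.07, 1.41 and 1.23 on the log2 scale. Rfc5 shares 499 bases with Wsb2 on the opposite strand, a gene at 67.4 CPM in tumour and 29.5 CPM in spleen libraries. The values of Rfc5 in both comparisons are therefore uncertain.

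Deoxynucleotide supply had the highest median of the 8 roles, 3.01, with 5 of 5 genes higher. Tyms had 69.0, 74.7 and 63.1 CPM in tumour libraries, against 7.76, 6.19 and 9.42 CPM in spleen libraries, and was higher by 3.14 ± 0.13 log2 units (SE; adjusted p = 3.3e-08). Rrm2 and Tk1 were close behind, at 3.11 ± 0.16 (SE; adjusted p = 3.58e-07) and 3.01 ± 0.06 (SE; adjusted p = 1.04e-09) on the log2 scale. Dut, which did not differ detectably between the cultures, had 107, 102 and 101 CPM in tumour and 31.4, 27.8 and 28.0 CPM in spleen libraries, and was higher by 1.83 ± 0.06 log2 units (SE; adjusted p = 7.86e-09). It was the least changed of the 5 and still far from overlap. Rrm1 changed by 2.10 ± 0.08 (SE; adjusted p = 2.36e-08). In pyrimidine ring synthesis, Umps had 64.2, 66.6 and 59.0 CPM in tumour libraries, against 30.9, 35.2 and 34.6 CPM in spleen libraries, and was higher by 0.92 ± 0.07 log2 units (SE; adjusted p = 1.5e-06). Cad differed by 0.37 ± 0.04 (SE; adjusted p = 3.37e-05) on the same scale. Dhodh ran the other way, with 16.9, 17.8 and 14.6 CPM in tumour and 26.8, 29.4 and 28.3 CPM in spleen libraries, lower by 0.78 ± 0.09 log2 units (SE; adjusted p = 2.51e-05). Every tumour library was below every spleen library; under the CD8 scaling Dhodh was 0.24 higher and not called (adjusted p = 0.18).

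All 4 G1/S genes were higher. E2f1 had 61.9, 67.6 and 62.3 CPM in tumour libraries, against 7.23, 6.04 and 7.18 CPM in spleen libraries, and was higher by 3.23 ± 0.09 log2 units (SE; adjusted p = 2.74e-09). Spleen cells held little of it in every library. Ccne1 had 29.4, 25.7 and 27.4 CPM in tumour and 20.1, 16.3 and 17.6 CPM in spleen libraries, higher by 0.61 ± 0.10 log2 units (SE; adjusted p = 0.000215). In both pairs of related genes, one partner moved far and the other less, since Ccne2 changed by 3.18 ± 0.16 (SE; adjusted p = 8.67e-08) and E2f2 by 0.71 ± 0.17 (SE; adjusted p = 0.00392) on the log2 scale. The chromatin genes were higher in 3 of 3. Uhrf1 had 229, 234 and 213 CPM in tumour libraries, against 37.4, 27.1 and 33.9 CPM in spleen libraries, and was higher by 2.78 ± 0.11 log2 units (SE; adjusted p = 2.78e-08). Chaf1b had 34.1, 37.6 and 32.8 CPM in tumour and 17.9, 16.5 and 19.1 CPM in spleen libraries, higher by 0.96 ± 0.08 log2 units (SE; adjusted p = 3.35e-06). Neither gene overlapped, and Chaf1a, at 2.41 ± 0.09 (SE; adjusted p = 1.95e-08), lay between them.

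In the 3 tumour libraries, replicate 3 was the lowest in 37 of the 44 genes, and among spleen libraries replicate 1 was the highest in 29. These within-group differences were small beside the group difference: the median log2 ratio to the spleen mean was 1.65, 1.60 and 1.49 in tumour libraries 1, 2 and 3.

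For the other genes of these pathways in tumour, the shares over all genes tested were 43.6% higher and 40.2% lower. Of 26 other replisome and fork genes, 19 were higher and 2 lower (median 0.77), from -0.30 ± 0.06 (SE; adjusted p = 0.00125) for the RNase H2 subunit Rnaseh2a to 3.32 ± 0.15 (SE; adjusted p = 1.46e-07) for topoisomerase Top2a. Of 15 origin and firing factors, 9 were higher and 4 lower (median 0.43), from -0.74 ± 0.05 (SE; adjusted p = 5.15e-07) for Orc3 to 2.82 ± 0.12 (SE; adjusted p = 2.15e-08) for the firing factor Ticrr. Of 18 salvage and turnover genes, 10 were higher and 6 lower (median 0.22), with the lowest, Tk2, at -1.77 ± 0.07 (SE; adjusted p = 1.53e-08). Of 15 purine synthesis and salvage genes, 10 were higher and 4 lower (median 0.31), from -0.79 ± 0.05 (SE; adjusted p = 1.8e-07) for Prps2 to 5.18 ± 0.19 (SE; adjusted p = 1.28e-08) for Adssl1, an adenylosuccinate synthase. Of 28 other G1/S genes, 16 were higher and 6 lower (median 0.79), from -1.18 ± 0.06 (SE; adjusted p = 6.81e-08) for cyclin D2 (Ccnd2) to 7.20 ± 0.27 (SE; adjusted p = 2.98e-08) for Cdkn1a, the cell cycle inhibitor p21. Under the CD8 scaling 3 salvage genes were still called lower and 0 in the other 4 lists, and Rnaseh2a, Orc3 and Prps2 turned positive, at 0.72, 0.27 and 0.23. All 26 mitosis genes were higher, with a median of 3.24, from 1.46 for Kif23 to 4.31 for Cdk1.

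Besides the fibroblast genes, markers of other cells moved with the tumour samples. Macrophage, monocyte and neutrophil genes summed to 344 to 471 CPM in tumour and 8.74 to 10.7 CPM in spleen libraries, with 7 of 10 tested genes higher, Spp1 the most abundant in tumour (385 ± 64.4 CPM) and Ly6g at 0 there. CD4 and regulatory T cell genes summed to 371 to 493 CPM in tumour and 39.5 to 43.97 CPM in spleen, led in tumour by Ctla4, which activated CD8+ T cells also express. B cell genes ran the other way, at 59.3 to 75.6 CPM in tumour and 809 to 843 CPM in spleen, with Ighm the most abundant. NK and gamma delta T cell genes summed to 44.8 to 71.8 CPM in tumour, led by Klre1, and 15.0 to 18.4 CPM in spleen. Endothelial genes summed to 103 to 115 CPM in tumour and 215 to 220.3 CPM in spleen, where most was Pecam1 (27.0 ± 1.76 CPM in tumour and 166 ± 5.47 CPM in spleen); Pecam1 was lower, but 4 of the 6 genes tested were higher (median log2 fold change 4.18). Erythroid genes summed to at most 1.25 CPM. Tumour cells and fibroblasts can express replication genes, and their part in the higher transcripts was not tested.

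The same 8 ratios were apart in all 8 cases between tumour and spleen libraries, at p = 0.1, the smallest that 3 against 3 allows (exact permutation test; adjusted p = 0.107). Rrm2/Rrm1 was 0.887 in tumour and 0.431 in spleen libraries, Ccne2/Ccne1 was 0.900 in tumour and 0.150 in spleen, Cad/Dhodh was 12.4 in tumour and 5.58 in spleen, and Tk1/Dck was 1.43 in tumour and 0.193 in spleen. These 4 were higher in tumour. The other 4 were lower: E2f2/E2f1 was 0.679 in tumour and 3.90 in spleen libraries, Cdt1/Gmnn was 2.87 in tumour and 8.39 in spleen, Pole2/Pole was 0.154 in tumour and 0.756 in spleen, and Orc6/Orc1 was 2.50 in tumour and 12.3 in spleen.

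Across both comparisons, which share no library, 39 of the 44 genes were called lower with ND-646 and higher in tumour, as were 14.6% of the 13261 genes tested in both. Pole2 was lower in both, Gins4, Pola1 and Dut had no call with ND-646 and were higher in tumour, and Dhodh had no call with ND-646 and was lower in tumour. By promoter, the median log2 fold change with ND-646 was -0.40 in the 15 genes with an E2F word, -0.35 in the 21 without and -0.31 in the 8 with no entry, and in tumour these medians were 1.27, 1.60 and 1.39. Rrm2, with none of the words in its promoter entry, had the largest decrease of the 44 with ND-646, and Orc1, with 1, the largest increase in tumour.

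Placed on 1 scale by TMM over all 14 libraries, levels can be set side by side, though culture and sorted cells were separate experiments and nothing was tested between them. Spleen cells were lowest in 39 of the 44 genes, with every spleen library below every library of the other 3 groups. The commonest order on this scale, in 27 genes, was tumour over vehicle over ND-646 over spleen. Tumour was highest in 29 genes and vehicle in 12. Within their own experiments, Mcm2 averaged 200.9 CPM in tumour and 202.7 CPM in vehicle libraries, and Rfc5 58.1 and 59.4 CPM. The counts of genes with tumour over vehicle therefore depend on the scaling. For Orc1 the joint levels were 11.7 ± 0.901 CPM in ND-646, 15.7 ± 1.87 CPM in vehicle, 20.3 ± 1.88 CPM in tumour and 1.23 ± 0.317 CPM in spleen libraries (SD, n = 4, 4, 3 and 3). Rrm2 stood at 90.3 ± 10.7, 215 ± 3.08, 183 ± 5.08 and 20.9 ± 5.27 CPM in ND-646, vehicle, tumour and spleen libraries, so ND-646 cultures lay between tumour and spleen. On this joint scale ND-646 was the lowest group for 4 genes, Cdt1, Pola2, Pole2 and Cad. Scaled within each experiment, Pola2 averaged 61.3 CPM in ND-646 and 60.1 CPM in spleen libraries. Cad averaged 158.9 CPM in ND-646 and 157.0 CPM in spleen libraries on those scales, so the place of ND-646 for Pola2 and Cad depends on the scaling. For Cdt1 the joint levels were 63.6 ± 2.67 CPM in ND-646, 77.4 ± 2.97 CPM in vehicle, 104 ± 5.81 CPM in tumour and 71.1 ± 2.00 CPM in spleen libraries. Pole2 was highest in spleen, at 18.3 ± 1.79 CPM, and lowest with ND-646, at 8.99 ± 0.575 CPM, and Dhodh was highest in spleen, at 29.3 ± 1.59 CPM, with the other groups at 18.7 ± 1.40, 19.1 ± 1.05 and 17.3 ± 1.70 CPM for ND-646, vehicle and tumour. ND-646 and tumour libraries overlapped in 7 genes, and vehicle and tumour libraries in 8.

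**Figure D5:**
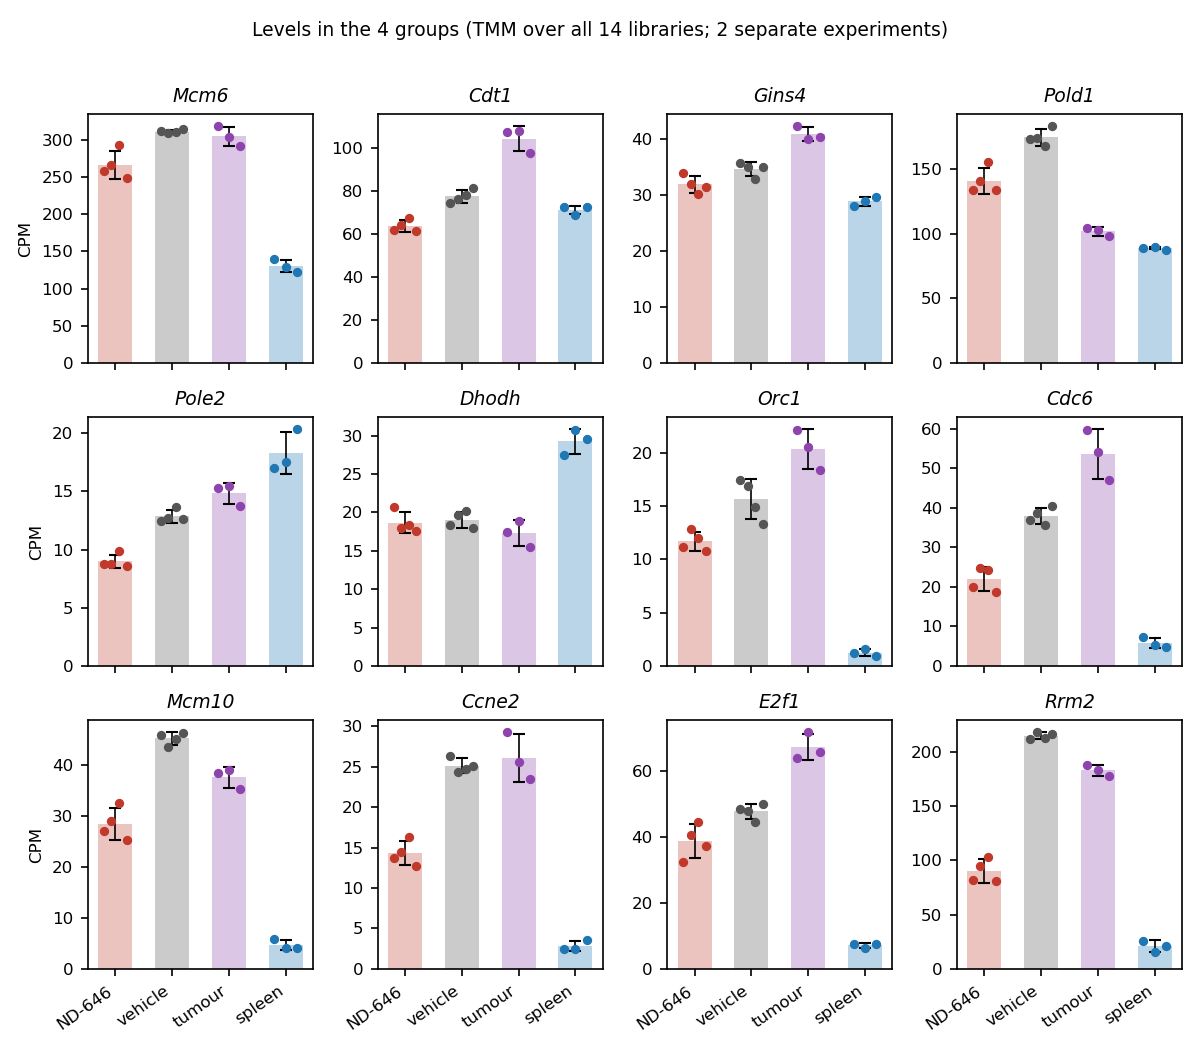
CPM (vertical axes, each from 0) of 12 of the 44 genes in ND-646, vehicle, tumour and spleen libraries on 1 TMM scale; points are libraries, bars means and error bars SD. Orc1, Cdc6 and the genes of the bottom row are far lower in spleen than in the other 3 groups, while Cdt1, Gins4 and Pold1 are nearer to them, and Pole2 and Dhodh are highest there.

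Per kilobase of each gene's longest principal transcript, which allows a rough comparison of genes, the spleen libraries held some parts of the machinery and little of others. Which transcripts of a gene the cells expressed was not tested. The 6 Mcm ring genes lay within 1.73-fold of each other there, from 25.0 to 43.1 CPM per kb, and within 2.19-fold, 2.32-fold and 1.90-fold in ND-646, vehicle and tumour libraries. Pcna was the highest of the 44 in spleen at 84.1 CPM per kb, as in the other groups. Cdt1, at 31.3, Pola2, at 24.8, Pold1, at 24.8, and Gins4, at 20.6 CPM per kb, stood near the ring genes. Orc1 was the lowest, at 0.393 CPM per kb, with Ccne2 at 0.909, Mcm10 at 0.923 and Cdc6 at 1.15. Genes that load and start the ring were found at both ends: the loader Cdt1 stood near the ring genes and the loader Cdc6 among the lowest, with Orc6 at 11.1, Gins2 at 3.64 and Cdc45 at 2.59 CPM per kb between them. The place of Gins2 is uncertain, since Gse1, which shares bases with it, stood at 107 CPM in spleen libraries.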

How the data were processed

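Values deposited by the authors are estimated counts by gene symbol in a table for each experiment, taken as not normalized because totals differ between libraries. Per the submitters' processing notes, STAR, Salmon and DESeq2 were used, with no version or role stated. The genome build, annotation and strand setting were not given in the sources used here. About 9% of the deposited estimated counts were not whole and were rounded. The kit marks strand, per the labels' protocols. All 14 columns matched a sample title.

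Each experiment was fitted alone in edgeR 4.0.16 (R 4.3.3) with TMM, filterByExpr, the robust quasi-likelihood F test and Benjamini-Hochberg adjustment at 0.05 over all genes tested; the standard error is the log2 fold change over the root of F. The procedure was first run on simulated counts. Their dispersion was the same for every gene and was set in advance rather than estimated from these libraries, so that run does not measure error rates here. A count of 3, the most that a count of 0 allows, was 0.0878 to 0.154 CPM across libraries, for counting error only. By chi-square over genes, every replicate pair differed beyond sampling noise. Same-numbered libraries gave no sign of pairing by correlation, which with so few libraries cannot exclude it.

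The 44 genes, the role, pathway, mitosis and marker lists, and the tests were chosen with earlier results of these data known. The highest and lowest fold change of each role and pathway list, genes without a call or against the majority, the ratio genes and the most abundant marker of each list are named by rule, except that 2 genes of these lists are not reported here; other members named were chosen after their values were seen. Lengths are of the longest principal transcript in GENCODE M21 (GRCm38). Transcripts were searched for copies with blastn 2.17.0+ at 95% identity over 200 bases: 15 of the 44 matched another gene, and 21 overlap another gene, 18 of them on the opposite strand, so their estimated counts are less certain. Among the 15, Chaf1a shared 1285 bases with Ubxn6, Rfc5 499 with Wsb2 and Ccne2 474 with Ints8. Tyms shared 357 bases at 95.5% identity with Map3k2. Promoters are RefSeq (GRCm38.p6). Other settings tried were the Wald test and size factors of DESeq2 1.42.0, limma-voom (limma 3.58.1), library totals, CD8 identity scaling, other low-count filters, a replicate block, a 2-fold minimum and leaving out each library; fits to 2 pairs of ND-646 libraries were added once the data had been seen.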

Additional observations from a re-analysis of the deposited data

Results flagged for a closer look

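Dut, the dUTPase gene that had no call between the cultures, was at 126.6 CPM in ND-646 library 1, which stood apart from the other 3 ND-646 libraries, at 121.7 to 122.2 CPM. It was the 1 sample that stood apart by Dixon's test among 88 groups of 4 tested, and chance flags about 1 in 20 groups.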

How the results depend on the processing

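Of the 44 genes, the number lower with ND-646 stayed at 40 or 41 when any 1 library was left out and the number higher in tumour stayed at 42 under the same. Requiring a minimum change of 2-fold in the test left 441 genes called with ND-646 (166 higher, 275 lower), with 1 of the 44 lower. In tumour it left 5996 genes called (3769 higher, 2227 lower), with 30 of the 44 higher and 0 lower. Scaling by CD8 identity genes moved the share of calls that were higher to 64.2% with ND-646, from 52.9% under TMM, and to 86.0% in tumour, from 52.0%; there 10582 genes were higher, 1720 lower, and 0 of the 44 lower. Under that scaling, log2 fold changes in tumour turned positive for Pole2 (0.69), Dhodh (0.24), Orc4 (0.95), Pold4 (0.89), Cdkn1b (0.79), Orc3 (0.27), Rnaseh2a (0.72) and Prps2 (0.23). The number of the 44 lower in tumour was 1 by DESeq2 and 1 to 2 when a library was left out. Leaving out a library gave 7424 to 7932 genes called with ND-646 and 12342 to 12928 in tumour. With ND-646, Mcm4 lost its call under library totals, CD8 scaling and ND-646 libraries 2 and 3 alone, while Gins4 gained one under DESeq2 size factors, by DESeq2, at a mean CPM of at least 1, with libraries 2 and 3 alone, and without vehicle library 3 or ND-646 library 1, and Pola1 gained one without ND-646 library 3 or 4; the cause was not tested. With the replicate number as a block, 7864 genes were called with ND-646 and 12492 in tumour, and no call of the 44 changed. Under that block the exact p of the 5 separate ratios in the cultures became 0.125, the smallest that 4 pairs allow. Same-numbered libraries correlated by -0.14 to 0.057 in the cultures and by -0.026 to -0.021 in tumour and spleen. These correlations gave no sign of pairing, but with so few libraries they cannot exclude it. Without the low-count filter the median of all genes in tumour rose by 0.31.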
